A study of Mus musculus with 4 samples.

Results

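The mouse genome carries large tandem clusters of chemosensory receptor genes, and the account below describes the TIMELESS ChIP-seq peaks of adult mouse hippocampus that lie in them. A peak was taken as a receptor peak when its summit, on chromosomes 1 to 19, lay within 50 kb of a gene whose symbol begins with Olfr, Vmn1r or Vmn2r in the RefSeq table of assembly GRCm38.p6, the build of the files (mm10). This rule took 4919 of the 112387 autosomal peaks of the 3 TIMELESS libraries and 28 of the 282 autosomal peaks of the input. The table held 2043 such genes, 1420 Olfr, 372 Vmn1r and 251 Vmn2r, of which 1458 were protein-coding and 585 were not. Their windows, each gene with 50 kb on both sides and merged where they overlapped, formed 170 clusters of 65.4 Mb. Of these, 64.9 Mb lie between the first and last peaks of their chromosomes and make up 2.70% of that span. The other 0.506 Mb are 3 clusters with 8 genes that the RefSeq table places before the first peak, where they could hold none. They stay in the 65.4 Mb by which densities were divided.

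Olfr genes encode the odorant receptors of the main olfactory epithelium, and Vmn1r and Vmn2r genes encode the pheromone receptors of the vomeronasal organ. Olfr and Vmn1r proteins are G protein-coupled receptors whose coding sequence usually lies in a single uninterrupted exon, whereas Vmn2r receptors have a long extracellular domain encoded by several exons. A sensory neuron of the nose expresses essentially a single olfactory receptor gene, and the receptor genes that it does not express are packed in heterochromatin. TIMELESS is known in mammals as a partner of TIPIN in the complex that protects replication forks, and it is related to the Drosophila clock protein of that name.

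There were 3 libraries from hippocampus of adult C57BL/6N mice immunoprecipitated with an antibody against TIMELESS, and 1 input library of the same kind of tissue without immunoprecipitation. The labels give them the same genotype and name no treatment or time point. The labels do not say that the 3 libraries came from separate animals, so their spread may be technical. In the deposited list of replicate 3 the header gives the alignment file the name of a second input, against the TIMELESS label, so values are given for each library and leading means also without replicate 3. After removal of duplicate positions 8425679, 13572739 and 30454118 tags were left in TIMELESS replicates 1, 2 and 3, with 14669253 in the input, and the autosomal peaks numbered 6875, 23058, 82454 and 282. Peak numbers rose in the order of depth among the 3 TIMELESS libraries. The lists were called without a control library, and neither repeats nor the share of bases to which reads can be assigned uniquely were analysed here.

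Promoter sequences of 4 genes show what the summits did and did not cover, since a peak reached only 1 receptor promoter. RefSeq promoters of build GRCm38.p6, from 250 bases before to 50 after the start, were at hand for 1260 of the receptor genes (1265 promoters). The promoter of Olfr613, an olfactory receptor gene, is chr7:103550118-103550417 on the plus strand and was the receptor promoter under a peak. Gm30122, an uncharacterised long noncoding RNA gene, has its promoter at chr10:78264047-78264346 on the minus strand, also under a peak of replicate 3. Olfr1490 has its promoter at chr19:13654196-13654495 on the plus strand and Olfr1423 at chr19:12036691-12036990 on the minus strand, both under no peak. Capitals in the Olfr613 sequence mark letters that lie in stretches of 25 letters found in at least 1 other promoter, on either strand. In the other sequences they mark letters in such stretches that the Olfr613 promoter also holds.
Olfr613: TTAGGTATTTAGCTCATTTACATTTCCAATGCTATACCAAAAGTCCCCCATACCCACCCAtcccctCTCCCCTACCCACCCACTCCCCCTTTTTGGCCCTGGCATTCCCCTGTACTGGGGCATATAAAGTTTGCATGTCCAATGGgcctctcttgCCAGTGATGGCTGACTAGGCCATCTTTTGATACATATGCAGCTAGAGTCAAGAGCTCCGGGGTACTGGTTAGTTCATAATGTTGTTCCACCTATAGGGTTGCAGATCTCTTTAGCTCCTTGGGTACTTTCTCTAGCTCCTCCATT
Gm30122: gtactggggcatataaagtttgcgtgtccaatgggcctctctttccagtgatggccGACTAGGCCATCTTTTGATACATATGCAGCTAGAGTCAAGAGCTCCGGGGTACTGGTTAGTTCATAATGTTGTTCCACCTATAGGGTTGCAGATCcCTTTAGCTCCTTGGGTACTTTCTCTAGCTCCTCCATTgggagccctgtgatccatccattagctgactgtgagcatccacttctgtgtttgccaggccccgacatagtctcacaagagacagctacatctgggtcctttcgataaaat
Olfr1490: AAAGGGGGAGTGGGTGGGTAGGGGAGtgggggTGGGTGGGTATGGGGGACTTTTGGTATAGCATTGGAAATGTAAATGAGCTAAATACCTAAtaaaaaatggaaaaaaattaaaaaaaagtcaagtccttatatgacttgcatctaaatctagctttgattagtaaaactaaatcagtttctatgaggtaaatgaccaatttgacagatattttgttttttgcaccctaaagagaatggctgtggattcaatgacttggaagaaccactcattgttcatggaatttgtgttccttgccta
Olfr1423: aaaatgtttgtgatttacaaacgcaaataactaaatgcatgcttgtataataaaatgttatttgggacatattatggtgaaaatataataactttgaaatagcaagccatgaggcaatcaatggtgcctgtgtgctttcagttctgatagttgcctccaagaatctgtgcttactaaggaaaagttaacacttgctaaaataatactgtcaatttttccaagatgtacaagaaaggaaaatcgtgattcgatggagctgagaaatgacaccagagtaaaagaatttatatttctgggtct

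Receptor windows held more peaks per Mb than their surroundings in every TIMELESS library. Replicates 1, 2 and 3 had 273, 978 and 3668 receptor peaks, which was 3.97%, 4.24% and 4.45% of their autosomal peaks on 2.70% of the span. The density was 4.18, 15.0 and 56.1 summits per Mb. The same windows moved by 0.5, 1, 1.5 and 2 Mb to each side, without any base in a receptor window, had 2.48, 8.48 and 29.5 summits per Mb. The ratio of the receptor windows to the moved windows was therefore 1.68 in replicate 1, 1.76 in replicate 2 and 1.90 in replicate 3, a mean of 1.78 ± 0.111 (SD, n = 3) and 1.72 without replicate 3. The spread of this ratio was small beside the spread of the densities. Taken singly, the 8 moves gave ratios of 1.52 to 1.89, 1.63 to 1.90 and 1.63 to 2.20 in the 3 libraries. Against the rest of the autosomes the ratio was 1.58 ± 0.0933, and 1.53 without replicate 3. With 3 libraries above their moved windows, the exact sign-flip permutation test gave a two-sided p of 0.25, which is the smallest it can give.

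The input also had more peaks in receptor windows. Its 28 receptor peaks were 9.93% of its autosomal peaks, at 0.428 per Mb (95% exact Poisson interval 0.285 to 0.619, counting error only) against 0.106 per Mb in the moved windows, a ratio of 4.02. The input ratio was thus above that of every TIMELESS library, on far fewer peaks. Its part in the TIMELESS ratio was not tested, and its values are given by family below.

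**Figure D1:**
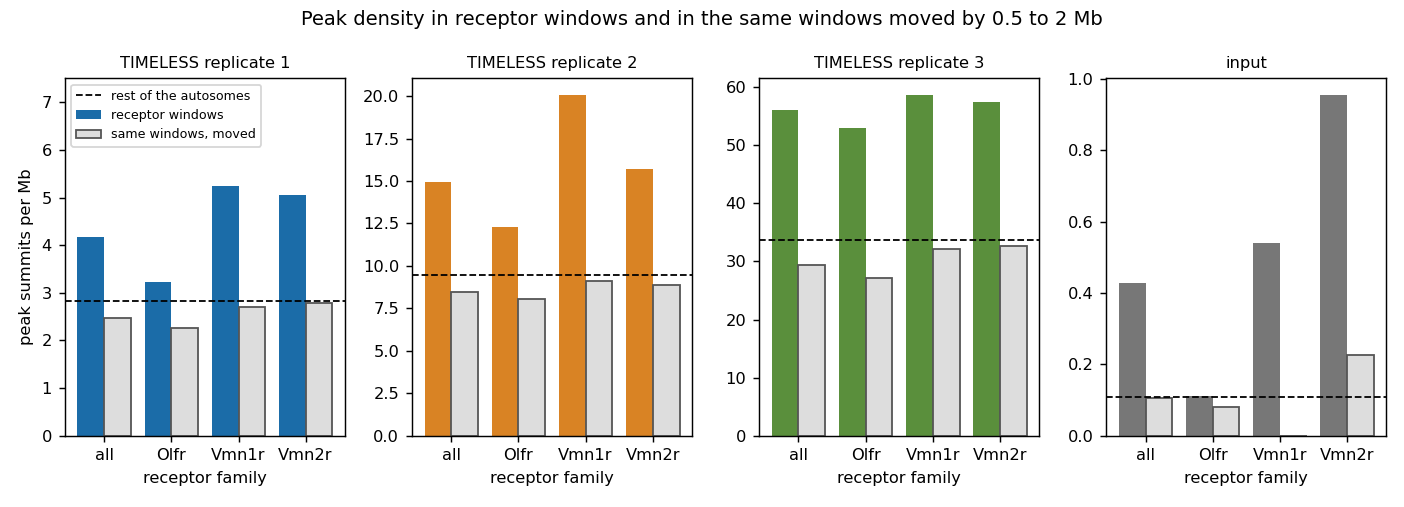
Bars show peak summits per Mb (vertical axis, scale differs between panels) in receptor windows (coloured) and in the same windows moved by 0.5 to 2 Mb (grey) for all receptor genes and for each family (horizontal axis), with 1 panel per library and a dashed line for the rest of the autosomes. In each TIMELESS library the coloured bars stand above the grey ones. In the input the Olfr bar, 0.112 per Mb, lies above its moved windows at 0.0801 and near the rest of the autosomes at 0.109.

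The receptor peaks had lower folds than other autosomal peaks. Their median fold enrichment, the authors' ratio of the summit's coverage to the caller's background, was 4.61, 4.10 and 3.43 in replicates 1, 2 and 3, against 4.94, 4.42 and 3.66 for the other autosomal peaks. The median pileup, the coverage itself, was not lower, at 14, 15 and 25 fragments against 13, 15 and 25. A fold of at least 5 was reached by 32.2%, 16.3% and 8.70% of receptor peaks and by 47.3%, 26.5% and 15.8% of the others. Among peaks of fold 5 or more, the ratio to moved windows was 1.13, 1.20 and 1.13 in replicates 1, 2 and 3 (1.15 ± 0.0409, against 1.78 with all peaks). For Olfr windows it was 1.02 ± 0.164, against 1.63, for Vmn1r windows 1.31 ± 0.467, against 1.98, and for Vmn2r windows 1.27 ± 0.276, against 1.78. By fold, the higher density of the TIMELESS libraries thus lay mainly in peaks of low fold. Filters on significance kept more of it over all receptor windows. The mean ratio was 1.56 with a −log10 q of at least 5 and 1.36 with the 5000 strongest peaks per library. In the input the ratio among peaks of fold 5 or more was 3.59, on 15 receptor peaks. Median widths were 355, 346.5 and 390 bp, beside 355, 349 and 404 bp elsewhere, and receptor peaks covered 1.63, 6.00 and 26.6 kb of each Mb against 1.137, 3.79 and 16.7 kb.

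By family, Vmn1r windows had the highest mean ratio to their moved windows and Olfr windows the lowest. The 3 Olfr values overlapped those of both other families, while the lowest Vmn1r value, 1.82, lay just above the highest Vmn2r value, 1.81. The order of Olfr and Vmn2r turned with coding genes alone, where the mean was 1.64 for Olfr and 1.60 for Vmn2r. Olfr windows held 115, 438 and 1885 peaks in replicates 1, 2 and 3, with ratios of 1.43, 1.52 and 1.95 (1.63 ± 0.274, SD, n = 3, and 1.48 without replicate 3). Vmn1r windows held 68, 260 and 760 peaks, with ratios of 1.94, 2.19 and 1.82 (1.98 ± 0.191, and 2.07 without replicate 3). Vmn2r windows held 90, 280 and 1023 peaks, with ratios of 1.81, 1.76 and 1.76 (1.78 ± 0.0268, and 1.78 without replicate 3). In replicate 3 the Olfr ratio was above those of Vmn1r and Vmn2r, whereas in replicates 1 and 2 it was below both. Input peaks were unevenly spread over the families. The input had 4 peaks in Olfr windows, with a ratio of 1.40 and a density of 0.112 per Mb (exact Poisson interval 0.0306 to 0.287), and 17 in Vmn2r windows, with a ratio of 4.23. Its 7 peaks in Vmn1r windows stood against 0 in the moved windows.

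Windows of protein-coding receptor genes had TIMELESS ratios of 1.54, 1.76 and 1.96, and the input had 1.63 on 5 peaks. Windows of pseudogenes that lay outside those coding windows had ratios of 2.47, 1.80 and 1.66, and 6.66 in the input on 23 peaks. So 23 of the 28 input peaks lay around pseudogenes, on 9.61 Mb of windows. In coding windows the input had 0.0897 peaks per Mb (exact Poisson interval 0.0291 to 0.209). It had 0.0549 in their moved windows and 0.109 in the rest of the autosomes. The TIMELESS ratio to moved windows was 1.75 ± 0.209, and 1.65 without replicate 3, with the input at 1.63. Against the rest of the autosomes the TIMELESS ratio was 1.52 ± 0.178, with the input at 0.825.

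Receptor windows reached 1 Mb on 15 chromosomes. Their density was above the rest of the same chromosome on 12 of these in replicate 1, 14 in replicate 2 and 15 in replicate 3, and in each of the 3 libraries on 12. Chromosome 7 carries the most receptor genes, 575 in 18.97 Mb of windows, and held 95, 334 and 1107 receptor peaks, with ratios to the rest of the chromosome of 2.18, 2.15 and 2.01 (2.12 ± 0.0905). Chromosome 2, with 379 genes in 7.52 Mb, had ratios of 1.15, 1.37 and 1.95. On chromosome 9 (179 genes) the ratios were 1.17, 1.48 and 1.92. On both, as over the Olfr windows as a whole, replicate 3 was the highest. Chromosome 1, with 36 genes in 1.31 Mb, held 1, 13 and 69 receptor peaks, and its ratios of 0.268, 0.968 and 1.35 fell on both sides of 1. Chromosome 13 stood out in replicate 1 with a ratio of 3.47, from 34 peaks, against 1.31 and 1.33 in replicates 2 and 3.

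A block of 7 clusters on chromosome 13, from Vmn2r-ps95 to Vmn2r-ps109, held 25 of those 34 peaks. It contains 13 Vmn2r pseudogenes in windows of 1.26 Mb. Replicates 1, 2 and 3 had 25, 14 and 50 peaks there and the input 12, which is 6.91, 1.15, 1.15 and 80.9 times the autosomal density of each library. The density was thus raised in replicate 1 and in the input, while replicates 2 and 3 stood near their autosomal mean. The block held 42.9% of the input's receptor peaks and 9.16% of those of replicate 1. Only 6 of the 25 peaks of replicate 1 in the block (24%) overlapped a peak of another TIMELESS library, against 179 of 248 (72.2%) of its other receptor peaks, and 3 of the 25 overlapped an input peak. Without the block the ratio over all receptor windows was 1.76 ± 0.175.

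The 44 clusters with at least 10 receptor genes, which together hold 1689 genes, varied widely. Their density was above that of their moved windows in 32 clusters in replicate 1, 37 in replicate 2 and 39 in replicate 3. In 28 clusters each of the 3 libraries was above, and in 1 none was. The mean ratio over the 3 libraries ran from 0.553 to 4.98, with a median of 1.80. These 44 clusters contained 4 of the 28 input peaks, 1 each in 4 clusters. The mean ratio differed little with the number of genes in a cluster, while single libraries went different ways. For 1, 2 to 9, 10 to 49 and 50 or more genes the mean was 1.87, 1.79, 1.85 and 1.74. In replicates 1, 2 and 3 the ratio was 2.25, 1.56 and 1.78 for windows of 1 gene. It was 1.70, 1.81 and 1.84 for 2 to 9 genes, 1.66, 2.04 and 1.83 for 10 to 49 and 1.52, 1.48 and 2.22 for 50 and more. Replicate 1 thus fell with the number of genes, while replicate 3 was highest at 50 and more.

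The highest mean ratio was found in a Vmn1r cluster of 23 genes on chromosome 6, Vmn1r-ps25 to Vmn1r54 (chr6:89648657-90320053). It held 4, 13 and 44 peaks, with ratios of 3.67, 5.30 and 5.98 (4.98 ± 1.19) and no input peak. Its densities were 5.96, 19.4 and 65.5 per Mb, against 1.62, 3.65 and 11.0 in its moved windows. Those surroundings were sparser than the moved windows of all receptor genes in each library. Another Vmn1r cluster, Vmn1r91 to Vmn1r-ps75 on chromosome 7 (chr7:20051158-21443260, 40 genes), held 14, 35 and 121 peaks at 10.1, 25.1 and 86.9 per Mb, with ratios of 5.93, 3.49 and 3.73. The Olfr cluster Olfr20 to Olfr412 on chromosome 11 (chr11:73300859-74415609, 44 genes) followed with ratios of 2.23, 3.15 and 7.56. Its densities of 1.79, 14.4 and 54.7 per Mb were below those of all receptor windows, so the ratio came with sparse surroundings, 0.804, 4.56 and 7.24 per Mb.

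At the low end, Vmn2r124 to Vmn2r127 on chromosome 17 (chr17:17999484-19226742, 15 genes) held 1, 10 and 62 peaks and lay below its moved windows in each library, with ratios of 0.187, 0.680 and 0.793 (0.553 ± 0.322). Its surroundings were dense, at 4.36, 11.99 and 63.7 per Mb. The cluster Olfr1444 to Vmn2r-ps135 on chromosome 19 (63 genes in 1.18 Mb) held 0, 9 and 58 peaks. The count of 0 in replicate 1 allows up to 2.55 per Mb (3 counts), and the moved windows had 2.06, so a difference there was not detectable at this depth. The same holds for Olfr433 to Olfr419 on chromosome 1, with 13 genes and 0, 2 and 14 peaks, where 0 allows up to 9.71 per Mb against 3.19.

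Among the clusters with the most genes, Olfr996 to Olfr1274 on chromosome 2 (chr2:85529215-90451674) is the largest, with 284 genes in 4.92 Mb. It held 14, 51 and 297 peaks, with ratios of 2.37, 1.34 and 3.16 (2.29 ± 0.914) and no input peak. Olfr160 to Olfr986 on chromosome 9 has 127 genes and held 8, 30 and 134 peaks, with ratios of 1.72, 1.23 and 3.02. Olfr543 to Olfr650-ps1 on chromosome 7 (chr7:102426773-104257006) has 116 genes and belongs to the class I olfactory receptor genes around the beta-globin genes. It held 10, 26 and 122 peaks and 1 input peak, with TIMELESS ratios of 3.80, 2.60 and 2.99 (3.13 ± 0.612). Olfr1275 to Olfr1319-ps1 on chromosome 2 (47 genes) had ratios of 1.09, 0.944 and 0.975, level with its surroundings. Among further clusters of similar size, Olfr9 to Olfr827 on chromosome 10 and Vmn2r-ps62 to Vmn2r79 on chromosome 7, had ratios of 2.80, 2.96 and 5.62, and of 0.905, 1.33 and 1.42. The remaining 3 were Olfr467 to Olfr519, with 3.62, 1.52 and 2.58, Olfr24 to Olfr18, with 1.19, 1.57 and 1.70, and Vmn1r-ps92 to Vmn1r-ps135, with 1.28, 1.80 and 2.28.

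**Figure D2:**
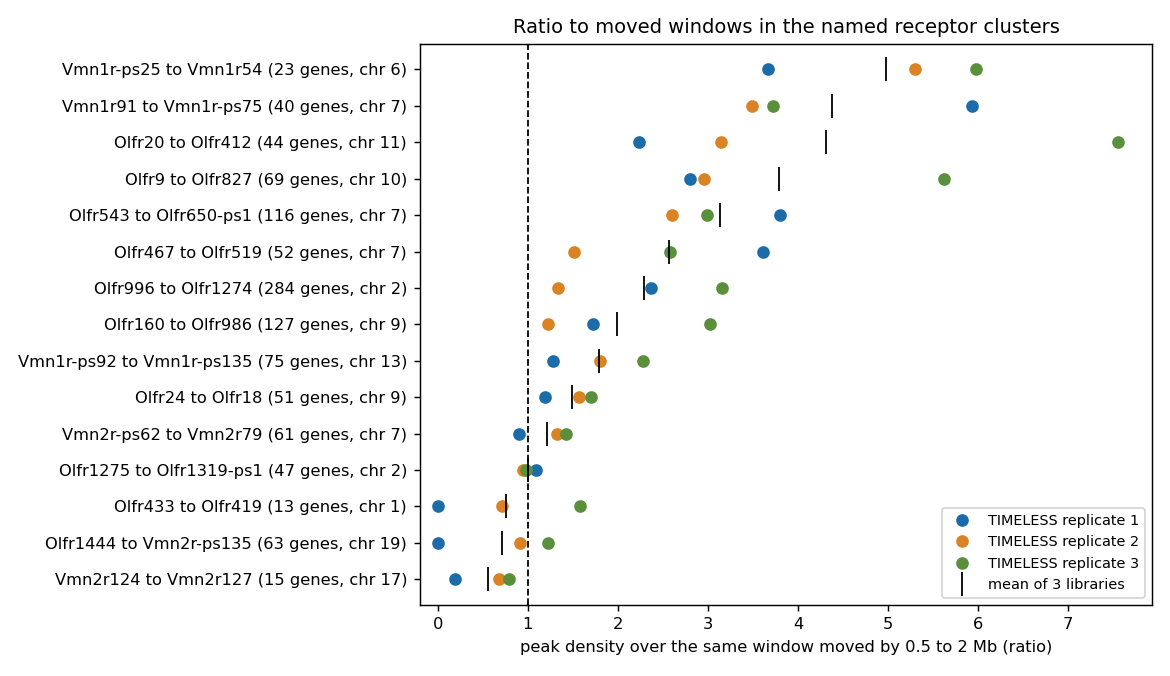
Each row is a receptor cluster, named by its first and last gene, and the horizontal axis is its peak density divided by that of the same window moved by 0.5 to 2 Mb, with 1 point per TIMELESS library, a bar for the mean and a dashed line at 1. The clusters shown are the 10 with the most genes and the 3 highest and 3 lowest in mean ratio among those of at least 10 genes, 15 in all because 1 belongs to 2 of these groups, and the mean ratios run from 0.553 to 4.98.

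Peaks were sparse just beside the receptor genes and dense farther out between them. Outside the genes, the density of replicate 3 was 9.41 per Mb up to 0.5 kb from a gene, 24.5 at 0.5 to 1 kb, 37.7 at 1 to 2 kb, 59.5 at 2 to 5 kb and 79.0 at 5 to 10 kb. It then fell to 69.2 at 10 to 25 kb and 44.5 at 25 to 50 kb. Replicate 2 had 0.495 per Mb up to 0.5 kb and 21.3 at 5 to 10 kb, and replicate 1 had 0.495 and 5.56. Inside the 2043 genes the densities were 2.72, 11.5 and 38.7 per Mb in replicates 1, 2 and 3, against 4.38, 15.4 and 58.6 in the windows outside them. The low value just beside the genes was common to the 3 libraries. Of these distance classes, 5 to 10 kb was the highest in each library. Replicate 1 was nearly level beyond it, with 5.08 per Mb at 10 to 25 kb and 5.15 at 25 to 50 kb. In classes of 10 kb it was highest at 40 to 50 kb. Beyond the 50 kb limit the density came near the autosomal mean: at 50 to 60 kb it was 0.882, 1.25 and 1.09 times that mean in replicates 1, 2 and 3, after 2.23, 1.36 and 1.26 times at 40 to 50 kb. The 10 peaks of replicate 3 just inside the limit lay 49.4 to 49.993 kb from a gene, with a median fold of 3.49, and the 10 just outside lay 50.048 to 50.5 kb away, with a median fold of 3.23.

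**Figure D3:**
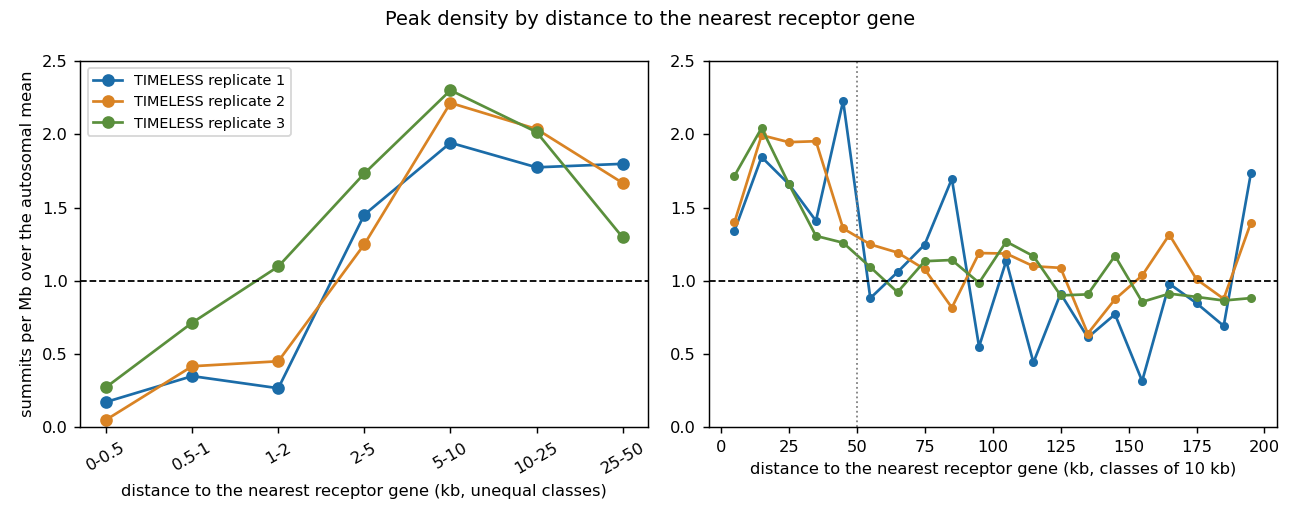
Both panels plot peak summits per Mb divided by the autosomal mean of the same library (vertical axis) against distance to the nearest receptor gene in kb (horizontal axis, gene bodies left out), with 1 line per TIMELESS library, a dashed line at 1 and, on the right, a dotted line at the 50 kb limit. The left panel has unequal distance classes, and its lines rise from 0.173, 0.0516 and 0.274 nearest the genes to 1.94, 2.21 and 2.30 at 5 to 10 kb, while the right panel shows them near 1 beyond 50 kb, with more scatter in replicate 1.

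The contrast between genes and the space between them was sharpest for short genes. The 1663 receptor genes shorter than 2 kb, mostly Olfr and Vmn1r genes, take up 1.51 Mb or 2.32% of the window bases. They held 0, 0 and 1 summits in the TIMELESS replicates 1, 2 and 3, and the input had 0. A count of 0 allows up to 1.98 summits per Mb, below the 4.38 and 15.4 per Mb that replicates 1 and 2 had in receptor windows outside receptor genes, where replicate 3 had 58.6 and, in these genes, 0.660. The single summit lay in Olfr211 on chromosome 6 (chr6:116492669-116494540), an olfactory receptor gene of 1872 bp, in a peak of fold 4.59. Short genes elsewhere also had lower densities than their surroundings. The 1128 other protein-coding genes under 2 kb had 1.49, 2.97 and 2.23 summits per Mb, against 2.45, 7.69 and 24.2 in the 50 kb around them. These densities rest on 2, 4 and 3 summits, too few to judge replicate 1. In replicates 2 and 3 the scarcity of summits was therefore not particular to receptor genes.

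Receptor genes of 2 kb or more, 380 in number, had 3.35, 14.1 and 47.5 summits per Mb, closer to the space outside genes. Most of them, 193, are Vmn2r genes. Over all 251 Vmn2r genes, including the 58 under 2 kb, the median gene length is 16059 bp. Protein-coding Vmn2r genes had 2.80, 11.2 and 44.5 summits per Mb, and Vmn2r genes of this length that are not protein-coding had 5.69, 22.3 and 61.1. Over all receptor genes, 8.06%, 9.51% and 8.53% of receptor summits (8.70% ± 0.740, SD, n = 3) lay inside a gene, where 12.4% of the window bases lie. Whether a summit was in an exon or an intron was not analysed here.

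Around gene starts, the density fell toward the start at receptor genes and at other genes alike, and by more at receptor genes in these libraries. Within 1 kb of the 1265 receptor starts there were 3, 3 and 15 pairs of a start and a summit in replicates 1, 2 and 3. Their density was 0.288, 0.0714 and 0.0862 times that at 5 to 10 kb from the same starts. At the 30131 other starts this proportion was 0.450, 0.439 and 0.385. The difference was in the same direction in the 3 libraries but rests on 3 pairs each in replicates 1 and 2. Replicate 3 had 5.93 summits per Mb within 1 kb of receptor starts and 68.8 at 5 to 10 kb. In the input the counts were too low for a comparison, with 1 pair within 1 kb.

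**Figure D4:**
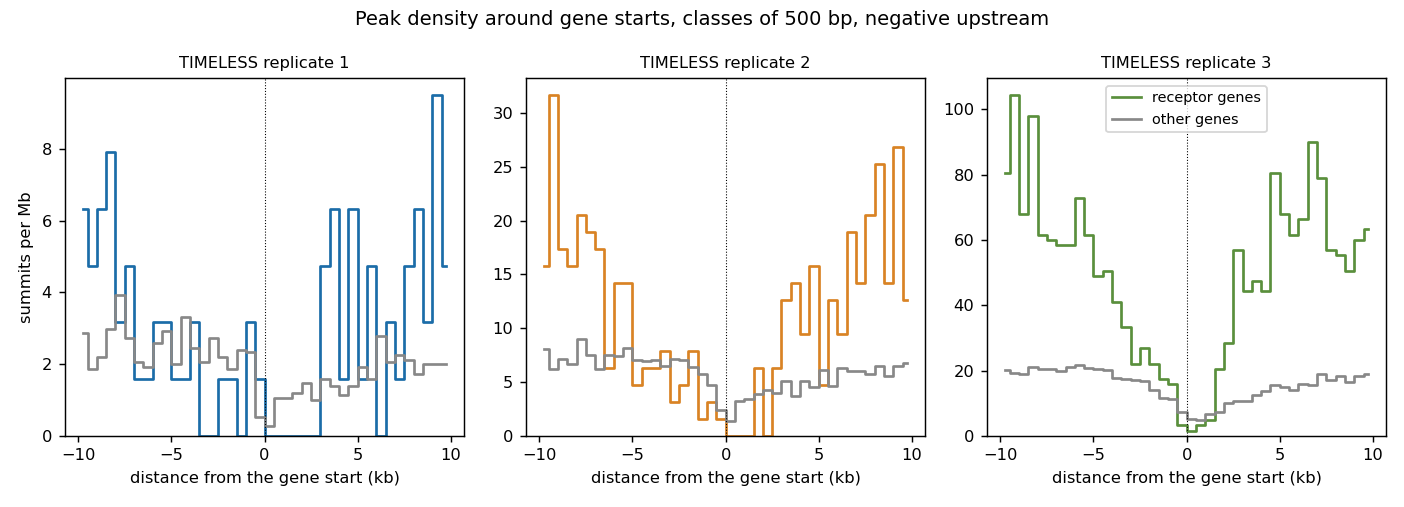
Each panel is 1 TIMELESS library and shows peak summits per Mb (vertical axis, scale differs) by distance from the gene start in kb (horizontal axis, classes of 500 bp, negative upstream), for the 1265 receptor starts (coloured) and the 30131 other starts (grey). The coloured line is above the grey one in most classes toward 10 kb and drops to near 0 at the start, from 68.8 per Mb at 5 to 10 kb to 5.93 within 1 kb in replicate 3.

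A peak overlapped 0, 0 and 1 of the 1265 receptor promoters in replicates 1, 2 and 3, where 0 allows a share of up to 0.237%. Over all 31396 autosomal promoters the overlapped share was 0.0382%, 0.108% and 0.471%, and 0.0159% in the input, so few were overlapped anywhere. In replicate 3 the receptor share was 0.0791% (exact binomial interval 0.00200% to 0.440%, counting error only), against 0.488% of the 30131 other promoters. Receptor promoters were richer in A and T, 63.8% ± 5.80 (SD over promoters) against 45.3% ± 10.9 for other promoters. Within promoters of 60% to 70% A and T, a peak of replicate 3 overlapped 0 of 833 receptor and 10 of 2189 other promoters (0.457%). The count of 0 of 833 allows up to 0.360%. The 0.457% rests on 10 promoters and has a counting error of its own, which was not computed. These counts therefore do not separate the 2 sets at like A and T content.

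The receptor promoter under a peak, that of Olfr613, has letters that recur elsewhere. Its peak in replicate 3 spans chr7:103550148-103550814, with fold 5.35, a pileup of 27 fragments and the summit 201 bp after the start, and it covers 270 of the 300 bases printed above. Replicates 1 and 2 had no peak within 100 kb of that start: their nearest summits lay 101810 and 101884 bp away. In the printed sequence 284 of the 300 bases are in capitals. Of the 31395 other promoters, 61 share at least 1 stretch of 25 letters with it, and 18 of these 61 (29.5%) were under a peak of replicate 3, against 129 of the 31334 that share none (0.412%). Replicate 2 overlapped 1 of the 61, and replicate 1 and the input overlapped 0. Gm30122 is the one with the most shared stretches among the 18, with 132 of its bases in capitals and a peak of fold 4.59 over its whole promoter. The 3 receptor promoters among the 61, those of Olfr1490, Olfr1382 and Olfr1373, were under no peak. Olfr1490 has 86 bases in capitals, at its upstream end and in the opposite orientation, and the nearest summit of replicate 3 lay 5580 bp from its start. This comparison was made after the overlap at Olfr613 had been seen and is a description.

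Recurring stretches were common at promoters under a peak in general. A stretch of 25 letters found in at least 5 promoters was present in 25%, 44.1% and 32.4% of the 12, 34 and 148 promoters under a peak of replicates 1, 2 and 3, against 7.10% of the 31224 under none. It was present in 14.0% of receptor promoters and 6.97% of the others. Receptor promoters thus held such stretches more often than other promoters, while few of them were under a peak.

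Sharing between libraries in receptor windows was close to that elsewhere, except in replicate 1. Of the receptor peaks, 185 of 273 in replicate 1 (67.8%), 464 of 978 in replicate 2 (47.4%) and 460 of 3668 in replicate 3 (12.5%) overlapped a peak of another TIMELESS library by at least 1 bp. Over all autosomal peaks these shares were 75.9%, 45.8% and 12.2%. For replicate 1 the exact binomial interval of the receptor share, 61.9% to 73.3%, lay below the share of its other autosomal peaks, 76.2%. By family, replicate 1 had 74.8% of Olfr peaks, 69.1% of Vmn1r peaks and 57.8% of Vmn2r peaks overlapped. Without the block of Vmn2r pseudogenes on chromosome 13, 72.2% of its receptor peaks were overlapped. Among the strongest peaks of replicate 1, those with a −log10 q of at least 10, 9 of 14 receptor peaks (64.3%) were overlapped, against 97.9% of 674 others, and 2 of the 5 not overlapped lay in that block. These intervals cover counting error only, and neighbouring peaks are not independent.

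When overlapping peaks of the 3 libraries were merged and regions over an input peak left out, 4286 receptor regions remained. Of these, 481 (11.2%) held peaks of at least 2 libraries, where 11.3% of all autosomal regions did. Peaks of all 3 libraries were in 115 (2.68%), against 3.24% of all autosomal regions. The share in receptor windows was thus near the background for both. Most regions came from 1 library: 85 from replicate 1, 514 from replicate 2 and 3206 from replicate 3. Of the merged regions, 154 held peaks of both replicates 1 and 2, 39 of them without replicate 3. With regions rebuilt from a pair of libraries, the number shared was 149 without replicate 3, 140 without replicate 2 and 414 without replicate 1.

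Because the windows held more peaks, shared regions were also more frequent per Mb there. Receptor windows had 7.36 shared regions per Mb, against 4.49 on the rest of the autosomes, and 1.76 regions of all 3 libraries against 1.30. By family, shared regions numbered 6.29 per Mb in Olfr windows, 8.94 in Vmn1r windows and 7.91 in Vmn2r windows. Of the 170 clusters, 124 held a shared region, 59 held one of all 3 libraries and 6 held no TIMELESS peak. Among these 6 are the 3 that the RefSeq table places before the first peak of their chromosome. The 115 regions of all 3 libraries lay at a median of 9.37 kb from the nearest receptor gene, and 29 lay within 5 kb. A smallest fold of at least 5 over the 3 libraries was reached by 14 of them (12.2%), against 26.5% of the 3044 such regions elsewhere. Of the 115, 11 overlapped a receptor gene, 10 of these a Vmn2r gene and 1 the gene Olfr851.

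The region with the largest smallest fold lies 1.59 kb from Olfr1423, an olfactory receptor gene on chromosome 19, at chr19:12037972-12038609. Its folds were 12.2, 10.1 and 10.5 in replicates 1, 2 and 3, so the 3 libraries were of like height there. The region begins beyond the upstream end of the Olfr1423 promoter printed above, and the nearest summits lay 1645, 1588 and 1672 bp from the start. The next region, chr2:39244990-39245586, had folds of 10.3, 9.55 and 7.73 and lies 28.7 kb from the pseudogene Vmn2r-ps2. Another, chr7:140221166-140221574, had folds of 7.91, 11.0 and 7.26. It lies in Cd163l1, a gene of the scavenger receptor family, 16.1 kb from the olfactory receptor gene Olfr524.

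The other 9 regions of this rank had smallest folds of 5.26 to 7.09. Nearest to them were the vomeronasal receptor genes Vmn2r90 (17.7 kb), Vmn2r110 (43.7 kb) and Vmn1r71 (33.0 kb), the pseudogenes Vmn1r-ps137 (47.8 kb) and Olfr241-ps1 (25.8 kb), and the olfactory receptor genes Olfr38 (2.59 kb), Olfr722 (40.2 kb), Olfr1417 (27.7 kb) and Olfr1257 (15.2 kb). Of these 9, the region near Olfr241-ps1 lies in Igh, the immunoglobulin heavy chain locus, and the one near Olfr1417 lies in Stx3, which encodes a syntaxin of vesicle fusion. At Vmn2r90 (chr17:17685969-17686381) the folds were 7.09, 8.53 and 8.27, and at Olfr38 (chr6:42765323-42765917) they were 7.29, 7.81 and 6.24. None of these 12 regions overlapped a receptor gene.

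The 6 strongest regions that did overlap a receptor gene were all at Vmn2r genes and had lower folds. That in Vmn2r-ps56 (chr7:41764182-41765288) had folds of 5.12, 4.10 and 5.99, and that in Vmn2r23 (chr6:123726532-123727410), the only protein-coding gene of the 6, had 5.25, 4.98 and 3.64. The other 4 lay in the pseudogenes Vmn2r-ps16, Vmn2r-ps34, Vmn2r-ps98 and Vmn2r-ps95, with smallest folds of 3.24 to 3.75, and the last 2 belong to the block on chromosome 13.

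**Figure D5:**
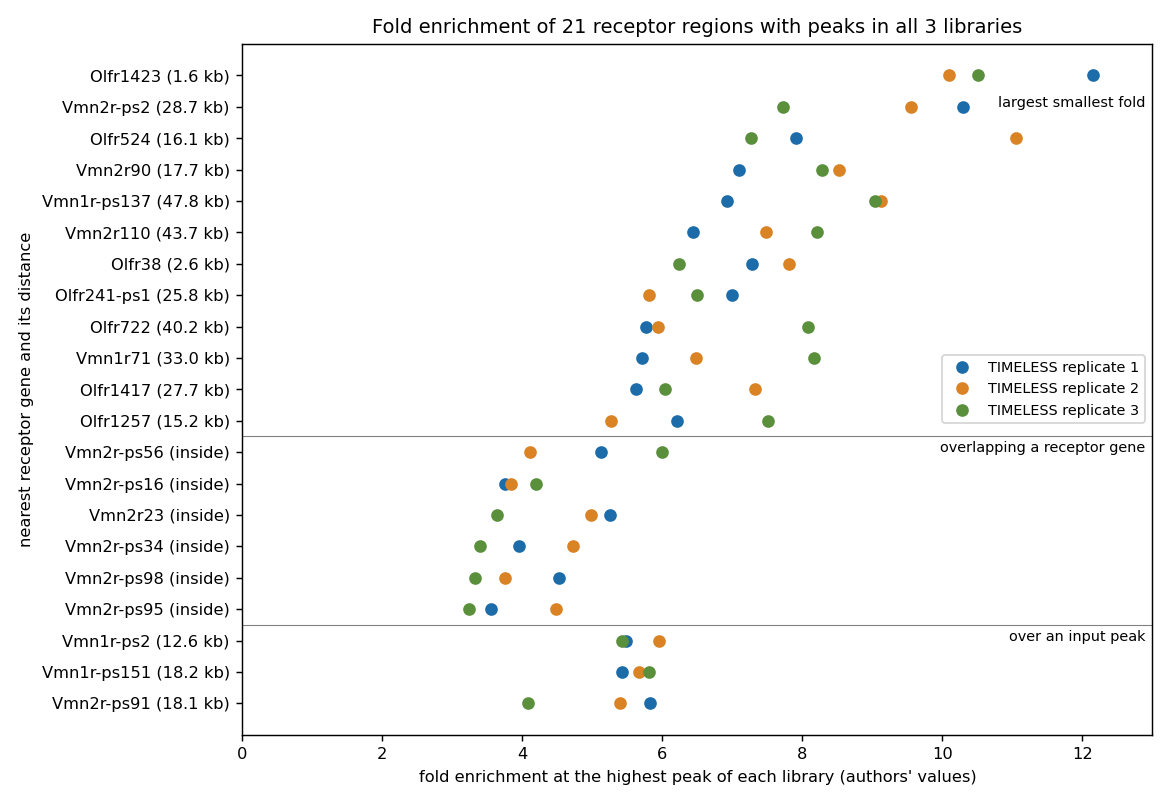
Each row is a region with peaks of all 3 TIMELESS libraries, named by its nearest receptor gene and the distance in kb, and the horizontal axis is the authors' fold enrichment of the highest peak of each library there (1 point per library). The 12 regions of largest smallest fold are at the top, from 5.26 to 10.1 in smallest fold, then 6 overlapping a receptor gene, and at the bottom 3 over an input peak.

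Few receptor peaks lay over an input peak. There were 7 in replicate 1 (2.56%, exact binomial interval 1.04% to 5.21%), 4 in replicate 2 (0.409%, 0.112% to 1.04%) and 7 in replicate 3 (0.191%, 0.0768% to 0.393%). The shares over all autosomal peaks were 1.79%, 0.62% and 0.183%, within these intervals. The mean share of 1.05% was 0.0106% with windows of coding genes alone, 0.555% without windows in the first 5 Mb of a chromosome, an alternative chosen after seeing the data, and 0.300% without replicate 1. In Olfr windows there were 0 of 115, 0 of 438 and 0 of 1885, which allows up to 3.16%, 0.839% and 0.196% by the upper exact bounds. The input had only 4 peaks in Olfr windows and 5 in coding windows. Few overlaps were thus possible there, and these low shares do not show that the TIMELESS peaks are free of input signal. In all, 10 receptor regions lay over an input peak, 5 of them shared and 3 with peaks of all 3 libraries. These 3 lay near the pseudogenes Vmn1r-ps2 on chromosome 4, Vmn1r-ps151 on chromosome 18 and Vmn2r-ps91 on chromosome 8, with folds of 5.49, 5.94 and 5.42, then 5.42, 5.66 and 5.81, and 5.83, 5.40 and 4.08 in replicates 1, 2 and 3.

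Seen from the input, 10 of its 28 receptor peaks (35.7%) were met by a TIMELESS peak, against 175 of its 254 other autosomal peaks (68.9%). A pseudogene was the nearest receptor gene for 25 of the 28. On chromosome 13 the 12 input peaks lay between 65349830 and 66746203, and 3 of them were met. On chromosome 4, 4 lay near Vmn2r-ps15 and Vmn2r-ps17, between 145679440 and 146180657, and none was met. Another 6 lay in the first 4 Mb of a chromosome, and 5 of these were met. Most input peaks of receptor windows thus lay at a few pseudogene sites, where TIMELESS peaks seldom coincided with them except near chromosome starts.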

How the data were processed

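ChIP-seq peak lists of 3 TIMELESS libraries and 1 input library from mouse hippocampus were used. Per the file headers, MACS 2.1.2 called peaks in each library separately, with no control, at a q-value cutoff of 0.05, reading 101 bp tags as single-end and keeping 1 tag per position. Reads were on build mm10, and Bowtie2 2.4, SAMtools 1.14, MACS2 2.1.1 and deepTools 2.0 were named, per the submitters' processing notes. The notes and headers differ in the MACS version. The deposited pileup is signal, the fragment coverage at the summit, not scaled for depth. The fold enrichment deposited beside it is the ratio of that signal to a background the caller estimated within the library, with a range of 10 kb in the headers. The deposited p-values and q-values are −log10 values. Such values served only to describe, rank or filter the authors' peaks. Deeper libraries let weaker sites pass the same cutoff.

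From these lists, summits were assigned to windows of receptor genes, and density was counted per Mb. Moved windows left out receptor windows and bases beyond the first or last peak of any library. A peak counted for the family of its nearest receptor gene. Regions were peaks merged at an overlap of at least 1 bp. Gene positions and promoter sequences came from RefSeq tables of GRCm38.p6, without exons. No planned family symbol starting Hist matched. The smallest p of an exact permutation with 3 libraries and 1 input is 0.25, so values are given per library with mean ± SD. Intervals and limits from counts of 0 (3 counts) cover counting error only. The counting was tested on simulated data.

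Named regions were the 12 of all 3 libraries with the largest smallest fold, the next 6 overlapping a receptor gene and the 3 over an input peak with the largest smallest fold. Named clusters were the 10 with the most genes and the 3 highest and 3 lowest in mean ratio among those of at least 10 genes. The members, gene lists and rules were chosen with earlier results of these data known. Alternatives were stricter peak filters, other window sizes and moves, coding genes only, another overlap and each library left out. Python 3.11.15, numpy 2.4.6, pandas 2.3.3, scipy 1.17.1 and matplotlib 3.10.9 were used.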

Additional observations from a re-analysis of the deposited data

Results flagged for a closer look

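Receptor windows on chromosome X, which the comparisons did not use, held TIMELESS peaks, while the input count was 0. The input had only 7 peaks on the whole chromosome, against 400, 1089 and 5258 in replicates 1, 2 and 3. A higher TIMELESS count in windows of this size therefore says nothing of a difference from the input. The 10 receptor genes there have windows of 0.883 Mb, with 4 peaks in TIMELESS replicate 1, 11 in replicate 2 and 42 in replicate 3. These are 4.53, 12.5 and 47.6 per Mb, against 2.38, 6.47 and 31.2 on the rest of that chromosome. The input count of 0 allows up to 3.40 per Mb (3 counts), a limit not far below the density of replicate 1.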

How the results depend on the processing

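The 4 mean density ratios stayed above 1 under each of the 13 alternatives run for them, with ranges of 1.15 to 1.85 for all receptor windows, 1.02 to 1.73 for Olfr, 1.31 to 2.20 for Vmn1r and 1.27 to 1.80 for Vmn2r. Of 121 alternative values in all, 85 stayed within the limits set for the main value and 36 moved. The limit was 1.5 times for counts and the SD over the 3 libraries for ratios and shares. That SD was wide for the share met by another library (27.9) and the share over input peaks (1.31). A fall of the latter from 1.05% to 0.0106% thus counted as unmoved, so the 85 are no measure of stability for these shares. The sign-flip test over 3 libraries cannot pass a threshold, so this says nothing of significance. With peaks of fold 5 or more, the mean receptor peak count fell from 1639.7 to 189, and the ratios were 1.15 over all windows, 1.02 for Olfr, 1.31 for Vmn1r and 1.27 for Vmn2r, with 53 shared regions and 15 of all 3 libraries. With the 5000 strongest peaks per library, these values were 155, 1.36, 1.21, 1.54, 1.46, 63 and 18, the share over input peaks was 2.94% and the share inside receptor genes 9.83%. With a −log10 q of at least 5 they were 829 peaks, 1.56 over all windows, 1.78 for Vmn1r, 1.69 for Vmn2r, 153 and 31 regions, and 7.44% inside genes. Fewer peaks are left by construction under these filters. With windows of 25 kb the Vmn2r ratio was 1.73 and 10.4% of summits lay inside genes. With 100 kb the ratio over all windows was 1.65, that of Vmn1r 1.68 and the share inside genes 7.55%. Coding genes alone gave a Vmn2r ratio of 1.60, below the Olfr ratio of 1.64, with 5.78% inside genes and a share over input peaks of 0.0106% against 1.05%. Moves of 0.5 and 1 Mb gave 2.20 for Vmn1r and 1.80 for Vmn2r. Leaving out the Vmn2r block of chromosome 13, chosen after seeing the data, gave 1.67 for Vmn2r, and leaving out windows in the first 5 Mb of a chromosome, chosen likewise, took the share over input peaks to 0.555%, within its SD of 1.31, and moved the other values by less than their SD or 1.5 times. The cause of these shifts was not tested.

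Leaving out each library in turn gave mean receptor peak counts of 625.5 to 2323, ratios of 1.72 to 1.83 for all windows, 1.48 to 1.73 for Olfr, 1.88 to 2.07 for Vmn1r and 1.76 to 1.78 for Vmn2r, and 140 to 414 shared regions. The share met by another library was then 27.5% to 35.7%, that over input peaks 0.300% to 1.49% and that inside genes 8.30% to 9.02%. Regions of all 3 libraries have no value with a library left out. No paired analysis was possible because the input has 1 library and no comparison was fitted between groups.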

Other observations

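The density in other gene families that lie in tandem clusters was compared with the autosomal mean of each library. The receptor windows together stood at 1.46, 1.56 and 1.64 times that mean in replicates 1, 2 and 3, and Olfr windows alone at 1.13, 1.29 and 1.56. Windows of 50 kb around genes whose symbols begin with Zfp, mostly zinc finger protein genes, were counted without their bases in receptor windows. They had 0.770, 0.700 and 0.664 times the autosomal mean and lay below it in each library. Cytochrome P450 genes of the Cyp2 families had 1.31, 1.64 and 1.29. The Mrgpr genes, which encode sensory neuron receptors, had 1.81, 1.08 and 1.29. Both lay above the mean in each library. Ugt genes, which encode glucuronosyltransferases, had 0.788, 1.41 and 1.69 in replicates 1, 2 and 3, on both sides of the mean. In each replicate a different family thus passed the value of all receptor windows: Mrgpr in replicate 1 (10 peaks), Cyp2 in replicate 2 (84 peaks) and Ugt in replicate 3 (77 peaks). The means of Mrgpr, Cyp2 and Ugt over the 3 libraries, 1.39, 1.41 and 1.30, lay below the 1.55 of all receptor windows. Vmn1r windows stood at 1.89, 2.15 and 1.75 in replicates 1, 2 and 3, above Mrgpr, Cyp2 and Ugt in each. Vmn2r windows stood at 1.76, 1.69 and 1.71, and of Mrgpr, Cyp2 and Ugt only Mrgpr in replicate 1 passed them. The clustered protocadherins and their relatives (Pcdh) had 1.05, 1.06 and 1.19. For the trace amine receptors (Taar), another family of olfactory receptors, the windows measure 0.289 Mb and held 1, 1 and 9 peaks, which is too few for a comparison. The remaining protein-coding genes stood at 0.852, 0.815 and 0.730. Zfp genes and receptor genes are in part neighbours, as 6.37% of receptor window bases lie within 50 kb of a Zfp gene. The families Defb, Krtap, Serpin and Klr had mean values of 1.07, 1.03, 0.905 and 1.00, with SDs of 0.372, 0.319, 0.208 and 0.0836.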
